A study of Mus musculus with 8 samples.

Results

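The nuclear-encoded subunits of the mitochondrial respiratory chain and ATP synthase were examined in subcutaneous MC38 tumours with and without induction of the chemokine CXCL14. Members were the genes whose symbols follow the naming of these subunits: Nduf for complex I, Sdh for complex II, Uqcr and Cyc1 for complex III, Cox with a digit from 4 to 8 for complex IV, and Atp5 for complex V. This gave 81 of the 18251 genes in the count table, with 37 in complex I, 4 in complex II, 9 in complex III, 14 in complex IV and 17 in complex V. The rule uses symbols and no measured value. Like the other gene lists given below, it was chosen with earlier results of these data known. The symbol pattern leaves out a few true subunits, among them Ndufab1 and Cox4i1, which are described at the end with related genes, and the subunits encoded by the mitochondrial genome were not analysed here. After the filter on low counts 78 members were tested. Cox6b2, Cox7a1 and Cox8b were not.

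MC38 is a mouse colon cancer cell line. Its genotype here was TetOn-CXCL14, in which doxycycline (DOX), a tetracycline analogue, switches on CXCL14. The cells were injected under the skin at the armpit of male C57 mice aged 7 weeks. Control tumours came from untreated mice. DOX tumours came from mice given 1 mg/mL DOX in the drinking water for 3 days, and both groups carried the construct. Each group held 4 tumours from 4 mice, and mRNA libraries were made from 0.1 g of tumour, host cells included. A volume of 300 mm3 is given both for the start of DOX and for harvest, so tumour size at harvest in the groups is uncertain. The sources used here do not say which promoter drives the transactivator or whether the line is 1 clone. No DOX-treated tumours without the construct were among the samples, so effects of DOX and of CXCL14 cannot be told apart.

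Complexes I to IV pass electrons from NADH and succinate to oxygen, complexes I, III and IV pump protons across the inner mitochondrial membrane, and complex V uses the proton gradient to make ATP. Most subunits are encoded in the nucleus, and a core of complexes I, III, IV and V is encoded in mitochondrial DNA and made on mitochondrial ribosomes, whose translation doxycycline is known to inhibit. Nuclear genes for these subunits are often held together by shared transcription factors: NRF1, the ETS factor GABP, YY1 and the estrogen-related receptors with their PGC-1 coactivators. Tumours use this chain to differing degrees beside glycolysis, and low oxygen shifts some cells from one to the other. The measurement here is mRNA, which does not give the amount or activity of the assembled complexes.

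The promoters of the members are shown first, with the recognition motifs of these shared factors. RefSeq windows of GRCm38.p6 reaching from 250 bases before to 50 bases after a gene's start were matched to 67 of the 81 members, and each motif was searched on both strands. The NRF1 core, GCGCA and GCGC with any base between them, lay in windows of 17 of the 67 members (25.4%), against 5.19% of the 27025 genes with a window. The ETS core CCGGAAG, the kind of site GABP binds, was also in 17 members (25.4%), against 9.93% of all genes, and the YY1 motif AAGATGGC was in 10 members (14.9%), against 3.19%. At least 1 of these 3 motifs was present in 38 of the 67. The estrogen-related receptor motif TCAAGGTCA was in Atp5g3 and Sdhd alone, 2.99% of members against 0.466% of all genes. Motifs of other kinds were about as frequent in members as elsewhere or less so: the hypoxia response core ACGTG in 25.4% against 21.8%, the E-box CACGTG, which contains that core, in 8.96% against 8.09%, the GC box GGGCGG in 40.3% against 38.2% and the TATA box TATAAA in 10.4% against 15.7%. The 27025 genes were taken whether or not they were expressed in these tumours, and the members were not compared with expressed genes alone. A match describes the letters of a window and is not a measured binding site.

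The 4 members whose windows held both an NRF1 and an ETS core are Cox6a1, Sdhd, Atp5h and Atp5k. Their 250 bases before the start are printed below, 5′ to 3′ on the strand of the gene, with NRF1 and ETS matches in capitals, followed by Cox8b and Cox7a1, isoform genes of heart and skeletal muscle that hold neither and were barely detected in these tumours. The windows are chr5:115348959-115349208 (minus strand) for Cox6a1, chr9:50603850-50604099 (minus strand) for Sdhd, chr11:115419920-115420169 (minus strand) for Atp5h, chr5:108434400-108434649 (minus strand) for Atp5k, chr7:140900447-140900696 (minus strand) for Cox8b and chr7:30183921-30184170 (plus strand) for Cox7a1, all on GRCm38.p6.
Cox6a1: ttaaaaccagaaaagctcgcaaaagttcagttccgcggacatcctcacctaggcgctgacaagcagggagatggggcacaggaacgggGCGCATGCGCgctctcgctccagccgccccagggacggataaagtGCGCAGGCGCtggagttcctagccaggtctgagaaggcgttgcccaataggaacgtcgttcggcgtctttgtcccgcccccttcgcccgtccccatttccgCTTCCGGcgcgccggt
Sdhd: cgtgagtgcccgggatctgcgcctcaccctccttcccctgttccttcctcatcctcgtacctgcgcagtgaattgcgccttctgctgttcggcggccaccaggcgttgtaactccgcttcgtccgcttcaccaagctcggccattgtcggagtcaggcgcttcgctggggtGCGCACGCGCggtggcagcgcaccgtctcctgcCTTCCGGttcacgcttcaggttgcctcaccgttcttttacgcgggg
Atp5h: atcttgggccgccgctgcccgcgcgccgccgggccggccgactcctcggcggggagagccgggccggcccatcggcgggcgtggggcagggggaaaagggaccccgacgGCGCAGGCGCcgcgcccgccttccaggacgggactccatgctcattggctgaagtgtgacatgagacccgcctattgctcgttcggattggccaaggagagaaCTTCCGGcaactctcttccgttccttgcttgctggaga
Atp5k: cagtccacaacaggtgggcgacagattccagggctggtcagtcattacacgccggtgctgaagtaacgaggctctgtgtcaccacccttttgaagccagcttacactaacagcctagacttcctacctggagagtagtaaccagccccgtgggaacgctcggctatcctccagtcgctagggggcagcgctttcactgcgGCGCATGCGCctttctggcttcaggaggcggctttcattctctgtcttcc
Cox8b: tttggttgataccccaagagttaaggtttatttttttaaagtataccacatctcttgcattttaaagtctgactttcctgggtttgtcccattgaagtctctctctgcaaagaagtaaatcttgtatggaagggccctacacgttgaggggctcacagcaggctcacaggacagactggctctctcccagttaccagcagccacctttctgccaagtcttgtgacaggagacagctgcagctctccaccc
Cox7a1: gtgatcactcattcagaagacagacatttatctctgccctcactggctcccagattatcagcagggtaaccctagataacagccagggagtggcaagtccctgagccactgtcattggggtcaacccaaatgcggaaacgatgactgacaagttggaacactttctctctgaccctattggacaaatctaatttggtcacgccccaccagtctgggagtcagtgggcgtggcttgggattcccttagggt

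Cox6a1 held 2 NRF1 cores, at bases -162 to -153 and -117 to -108 before the start, and an ETS core at -16 to -10, in the reverse orientation CTTCCGG. In Sdhd the NRF1 core lay at -79 to -70 and the ETS core at -46 to -40, and in Atp5h at -141 to -132 and -38 to -32. The NRF1 core of Atp5k lay at -50 to -41, while its ETS core was at bases 13 to 19 of the transcribed part, which is not printed. GC content was 62.8%, 64.4%, 69.6% and 57.6% in these 4 windows, against 47.2% for Cox8b and 51.2% for Cox7a1. Windows without either core were not limited to weakly detected genes. Atp5b, Cox5a and Cox7a2 also lacked both, and Atp5b had the highest level per length of all members.

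The libraries held 18685975 to 19307481 counts, and between 0.859% and 0.937% of them fell on the 81 members. Cxcl14, the induced gene, was at 9.34, 9.69, 8.30 and 9.59 CPM (counts scaled to library size, with TMM factors) in the 4 controls, listed as tumours 1 to 4 here and throughout, and at 30.1, 30.2, 20.3 and 15.8 CPM under DOX, without overlap (exact two-sided permutation p = 0.0286, the smallest that 70 allocations allow). Its edgeR adjusted p over 13436 genes was 0.387. On the first principal component DOX tumour 1, at -10.5, lay among the control tumours (-27.3 to -9.35), and the other DOX tumours were at 14.9 to 43.1, with DOX tumour 4 at the far end. Of 10 listed markers of colon epithelium 8 were in the table and 2, Cdh1 and Lgals4, were high enough to test, and the list summed to 7.36 to 22.2 CPM, so markers of the labelled origin were low throughout.

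Per length, the 81 members covered a wide range in FPKM (fragments scaled to transcript length and library size). The highest was Atp5b, the catalytic beta subunit of ATP synthase, with a mean of 660 FPKM over the 8 tumours, followed by Cox8a (624 FPKM), Cox6c (578 FPKM), Atp5g2 (564 FPKM) and Cox7c (530 FPKM). Cox6c, Cox7c and Cox8a are small subunits that surround the catalytic core of cytochrome c oxidase, and Atp5g2 encodes the c subunit, which ATP synthase uses in many copies per ring. At the other end were the isoform genes Ndufa4l2 (1.20 FPKM), Cox7a1 (0.809 FPKM), Cox8b (0.270 FPKM) and Cox6b2 (0.220 FPKM). Leaving these aside, the lowest member was Ndufa11, a membrane-arm subunit of complex I, at 11.1 FPKM, with Cox6a2 at 14.5 FPKM just above it.

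The complexes differed in level. The median over members was 64.2 ± 4.05 FPKM for complex I, 76.3 ± 3.06 for complex II, 108 ± 11.4 for complex III, 140 ± 4.30 for complex IV and 205 ± 6.05 for complex V in control tumours (SD, n = 4). In DOX tumours the medians were 68.9 ± 5.56, 79.6 ± 2.57, 115 ± 14.6, 139 ± 8.34 and 214 ± 10.1 FPKM in the same order. The order from I up to V held in each of the 8 tumours. Across tumours the medians of complex V (197 to 228 FPKM) lay clear of those of complex IV (129 to 149 FPKM), whereas those of complexes IV and III overlapped, since complex III reached 131 FPKM in DOX tumour 4. Complexes I and II, at 58.1 to 76.6 and 72.2 to 82.1 FPKM, overlapped as well, and complexes II and III did not. FPKM depends on the transcript length assigned to a gene, and many members are short.

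**Figure D1:**
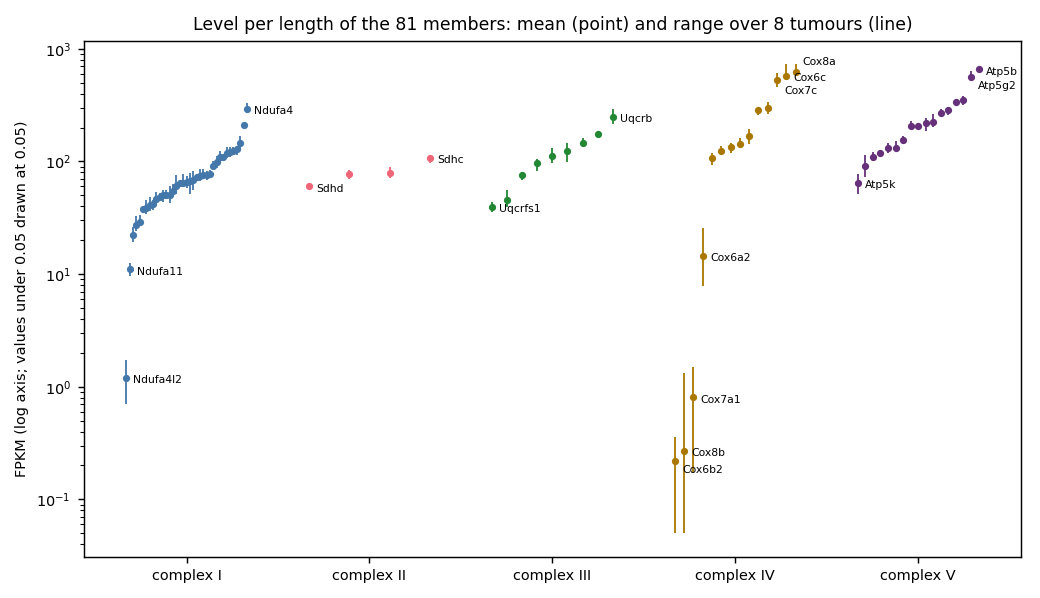
FPKM (log axis) of the 81 members, ordered by mean within complexes I to V; points are means over the 8 tumours, lines run from the lowest to the highest tumour, and values under 0.05 are drawn at 0.05. Complex V members run from 64.6 (Atp5k) to 660 FPKM (Atp5b) and complex I members, Ndufa4l2 aside, from 11.1 (Ndufa11) to 292 FPKM (Ndufa4); the isoform genes Ndufa4l2, Cox7a1, Cox8b and Cox6b2 are the lowest, at 0.220 to 1.20 FPKM.

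Between DOX and control tumours, no member passed the test. In edgeR's quasi-likelihood test 0 of 78 members had a Benjamini-Hochberg adjusted p below 0.05, against 1 of the 13436 genes tested (0.00744%). The smallest adjusted p among members was 0.459, for Sdhb. At an unadjusted p below 0.05 there were also 0 of 78 members, while 11.6% of all genes tested met it, 7.65% on the higher and 3.95% on the lower side. DESeq2 was run without the filter on low counts, on 18206 genes. It called 0 members at either level, against 82 genes (0.45%) at the adjusted and 9.68% at the unadjusted one. For no member did the 4 DOX tumours all lie on one side of the 4 controls, a separation seen in 5.66% of genes tested, 3.23% with DOX above and 2.43% with DOX below, and in 5.78% of those with a mean of at least 10 CPM. A p that misses the threshold does not show equality, so the intervals of the differences carry the result.

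For 76 of the 78 tested members (97.4%) the 95% interval of the fold change, from edgeR's estimate and SE, lay within 1.5-fold in either direction. That held for 72.2% of all genes tested and for 88.2% of those with a mean of at least 10 CPM. The 2 exceptions were Ndufa4l2 and Cox6a2, both weakly expressed. The median log2 fold change of the members was 0.05, beside -0.01 for all genes tested. The median size of the change, in either direction, was 0.06 on the log2 scale, beside 0.105 for all genes. Among genes with a mean of at least 10 CPM the median was -0.0201 and the median size 0.0834. Estimates were above 0 for 53 members and below 0 for 25, or 67.9% above. Of all genes 46.8% were above 0, and of those with a mean of at least 10 CPM 43.3%. Members share the tumours in which they were measured, so this excess of small positive values is not a count of independent results, and it rests on DOX tumour 4: without that tumour 36 were above and 42 below, with a median of -0.00303. In these bulk samples fewer cells of a type and less RNA per cell cannot be told apart.

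**Figure D2:**
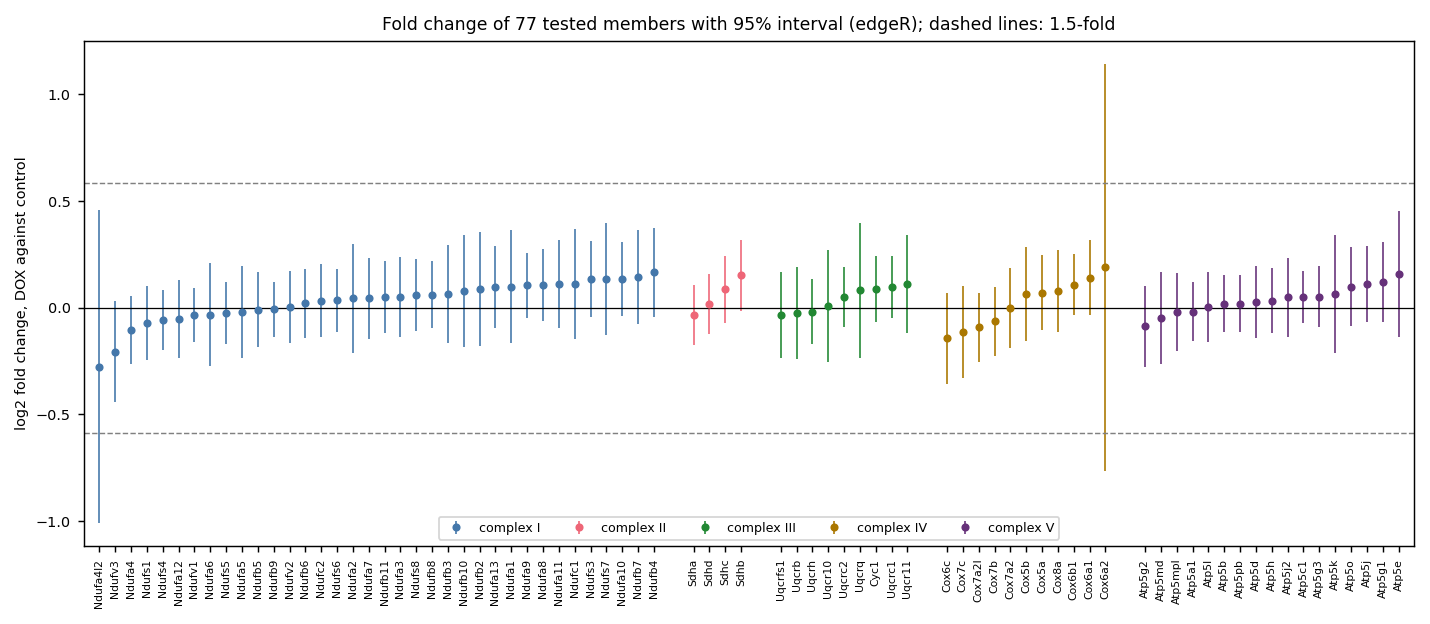
Log2 fold change of DOX against control for 77 of the 78 tested members, by complex; points are edgeR estimates, whiskers 95% intervals, and dashed lines mark 1.5-fold. Every interval drawn includes 0, and those of Ndufa4l2 and Cox6a2 cross the dashed lines.

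Complex I takes electrons from NADH and is the largest of the complexes. Its 37 members had a median log2 fold change of 0.04, with 25 above 0 and 12 below, and 36 of 37 intervals lay within 1.5-fold. The sum over its members was 2095, 2123, 2023 and 2107 CPM in controls and 1962, 2038, 2204 and 2270 CPM under DOX. The DOX tumours thus bracketed the controls, with 2 tumours above every control value and DOX tumour 1 below all of them (2087 ± 44.1 against 2119 ± 143 CPM, mean ± SD, n = 4 each).

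The NADH-oxidising end of complex I is formed by the flavoprotein Ndufv1 and the iron-sulfur subunits Ndufv2 and Ndufs1. Ndufv1, which holds the flavin that accepts electrons from NADH, stood at 73.3, 81.0, 73.3 and 76.4 CPM in controls and 76.6, 73.0, 72.4 and 75.1 CPM in DOX tumours. Its log2 fold change was -0.03 ± 0.06 (SE). Ndufs1, the largest iron-sulfur subunit, had 76.5, 70.4, 80.2 and 90.2 CPM against 73.1, 75.2, 78.0 and 75.4 CPM, with the spread wider among controls. Ndufv2 had 77.4, 70.5, 70.7 and 79.4 CPM in controls and 68.4, 71.3, 82.4 and 76.3 CPM in DOX tumours, or 74.5 ± 4.57 and 74.6 ± 6.14 CPM (mean ± SD, n = 4 each), and the sign of its change depended on the scaling of the libraries. All 3 electron-entry subunits overlapped between the groups.

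The arm that carries electrons on to ubiquinone includes Ndufs3, Ndufs7 and Ndufs8. Ndufs3 was 40.3, 42.4, 39.4 and 37.3 CPM in control and 40.5, 42.2, 42.4 and 49.7 CPM in DOX tumours, with a log2 fold change of 0.13 ± 0.08 (SE, edgeR adjusted p = 0.536). The first 3 DOX tumours lay within or at the control range and DOX tumour 4 above it. Ndufs7, next to the ubiquinone site, had 37.9, 44.4, 39.4 and 41.3 CPM against 38.3, 39.5, 45.5 and 55.7 CPM, with DOX tumour 3 just above the control range and DOX tumour 4 well above it. Ndufs8, which holds iron-sulfur clusters, had 52.9, 59.2, 57.8 and 57.1 CPM against 52.8, 57.3, 61.4 and 64.9 CPM, again with DOX tumours 3 and 4 above every control. The count of Ndufs1 was not whole in most libraries, so it holds reads shared with other sequences.

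Ndufv3, an accessory subunit at the NADH-oxidising end, had the smallest p of complex I and pointed downward. Its level was 40.5, 46.2, 36.0 and 34.0 CPM in controls and 34.0, 30.0, 35.8 and 36.1 CPM in DOX tumours. Control tumours 1 and 2 were the highest of the 8 and DOX tumour 2 the lowest (log2 fold change -0.21 ± 0.11, SE, unadjusted p = 0.0796, edgeR adjusted p = 0.471). Ndufb4, a membrane-arm accessory subunit, had the largest positive estimate of the complex, 0.17 ± 0.09 (SE, edgeR adjusted p = 0.511), with 53.5, 57.7, 52.9 and 59.3 CPM in controls and 52.3, 66.3, 61.4 and 70.5 CPM in DOX tumours. Here 3 DOX tumours were above every control and DOX tumour 1 was below them. The Ndufb4 count was whole in fewer than 6 libraries. Ndufa10, related to nucleoside kinases, was at 85.9, 89.9, 81.5 and 93.6 CPM in controls and 88.8, 89.6, 100.1 and 107 CPM in DOX tumours. Ndufa9, an accessory subunit that binds NADPH, was at 48.2, 52.6, 50.4 and 53.3 CPM against 50.1, 54.2, 58.1 and 57.6 CPM. DOX tumours 3 and 4 lay above the controls in both genes, and DOX tumour 2 did in Ndufa9. The Nduf members not described here ran from -0.06 (Ndufs4) to 0.14 (Ndufb7) in log2 fold change.

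Ndufa4, first assigned to complex I and now known as a subunit of complex IV, was the highest of the Nduf genes at 292 FPKM. By symbol, Ndufa4 and Ndufa4l2 are included in all complex I medians, sums and counts given here. Ndufa4 had these levels: 129, 129, 136 and 148 CPM in control and 118, 124, 138 and 124 CPM in DOX tumours, so the upper DOX tumour fell inside the control range (log2 fold change -0.10 ± 0.07, SE, edgeR adjusted p = 0.589). Its paralog Ndufa4l2, which low oxygen is known to induce, held 0.443% ± 0.182 of the summed FPKM of the pair without and 0.386% ± 0.0988 with DOX (SD, n = 4 each). Ndufa4l2 itself had 1.64, 1.45, 1.09 and 0.643 CPM in controls and 0.725, 1.35, 0.992 and 0.908 CPM in DOX tumours. Both groups spread widely and overlapped, and the interval of the Ndufa4l2 log2 fold change ran from -1.01 to 0.46. Other genes of the hypoxia response had negative estimates that did not pass the adjusted test, as given below.

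Complex II, succinate dehydrogenase, feeds electrons from the citric acid cycle and is wholly nuclear-encoded. Its 4 genes had a median log2 fold change of 0.05. Sdhb, the iron-sulfur subunit, had the smallest p of all members: 78.7, 78.8, 74.9 and 73.0 CPM in controls and 76.4, 81.9, 85.5 and 95.6 CPM in DOX tumours. The 4 control values lay close together, DOX tumour 1 fell among them and the other 3 DOX tumours lay above (log2 fold change 0.15 ± 0.07, SE, 95% interval -0.01 to 0.32, unadjusted p = 0.0678, edgeR adjusted p = 0.459). Its unadjusted p fell below 0.05 when libraries were scaled by totals alone, with limma on FPKM and without DOX tumour 1, and in none of these did the adjusted p pass.

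Sdha, the flavoprotein that oxidises succinate, had 204, 227, 217 and 238 CPM in control and 216, 211, 226 and 212 CPM in DOX tumours. The membrane anchor Sdhc had 123, 128, 108 and 113 CPM against 119, 121, 127 and 133 CPM, and the other anchor, Sdhd, 77.5, 71.6, 74.4 and 72.1 CPM against 69.6, 72.1, 79.9 and 77.6 CPM. All 3 overlapped, with log2 fold changes of -0.03 ± 0.06, 0.09 ± 0.07 and 0.02 ± 0.06 (SE). The complex II sum was 483, 505, 474 and 495 CPM in controls and 481, 486, 519 and 518 CPM in DOX tumours, so DOX tumours 3 and 4 lay above every control and DOX tumours 1 and 2 did not.

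Complex III passes electrons from ubiquinol to cytochrome c. Its 9 members had a median log2 fold change of 0.05, with 6 above 0 and 3 below, and all 9 intervals lay within 1.5-fold. The electron-carrying subunits encoded in the nucleus are the Rieske iron-sulfur protein Uqcrfs1 and cytochrome c1, Cyc1. Uqcrfs1 had 57.4, 44.2, 50.6 and 50.5 CPM in controls and 47.1, 45.7, 50.8 and 54.4 CPM in DOX tumours, and every DOX value lay inside the control range. Cyc1 was at 172, 176, 160 and 175 CPM against 174, 174, 174 and 203 CPM, with 3 nearly equal DOX tumours and DOX tumour 4 apart.

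Uqcrc1 and Uqcrc2, the large core proteins on the matrix side, differed little. Uqcrc1 had 137, 156, 154 and 153 CPM in controls and 156, 156, 156 and 174 CPM in DOX tumours (log2 fold change 0.10 ± 0.07, SE, edgeR adjusted p = 0.591). The low control tumour 1 and the high DOX tumour 4 set that difference. Uqcrc2 had 130.1, 133, 135 and 148 CPM against 132, 141, 143 and 149 CPM, and the groups overlapped. Among the small subunits, Uqcrq had 80.8, 62.8, 59.0 and 59.0 CPM in control and 56.6, 65.2, 69.9 and 85.1 CPM in DOX tumours, the widest interval of the complex, -0.24 to 0.40. Uqcr11 had 40.4, 46.4, 43.2 and 37.3 CPM against 40.2, 41.2, 47.0 and 52.4 CPM. Uqcrb, the most abundant of the complex per length at 248 FPKM, had 129.8, 106, 117 and 147 CPM against 114, 124, 125 and 129 CPM, every DOX value inside the control range. The summed complex III level was 885, 856, 854 and 909 CPM in controls and 839, 878, 902 and 999.9 CPM in DOX tumours, with the highest and the lowest of the 8 both in the DOX group.

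Complex IV, cytochrome c oxidase, reduces oxygen. Its catalytic subunits come from mitochondrial DNA, and the 14 members are nuclear subunits that surround them and isoforms used in particular tissues. Of the 11 tested, 6 were above 0 and 5 below, with a median log2 fold change of 0.06. Its members pointed in both directions, and none passed the test. Cox6a1, an accessory subunit with a regulatory role, had 153, 154, 141 and 137 CPM in controls and 144, 157, 163 and 181 CPM in DOX tumours (log2 fold change 0.14 ± 0.08, SE, edgeR adjusted p = 0.511). Cox6b1, on the cytochrome c side of the enzyme, had 114, 113, 111 and 123 CPM against 114, 124, 126 and 133 CPM (0.11 ± 0.06, SE). In both, 3 DOX tumours were above the control range and DOX tumour 1 lay inside it.

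Cox6c and Cox7c, small transmembrane subunits, had estimates on the lower side. Cox6c had 272, 259, 241 and 331 CPM in controls and 234, 253, 257 and 255 CPM in DOX tumours, where the 331 CPM of control tumour 4 set most of the difference (log2 fold change -0.14 ± 0.10, SE, edgeR adjusted p = 0.586). Cox7c had 253, 215, 196 and 220 CPM against 178, 196, 218 and 225 CPM (-0.11 ± 0.10, SE). Cox7a2l, a homologue of Cox7a2 that acts in joining complexes III and IV into supercomplexes, had 147, 130, 128 and 122 CPM against 120, 116, 130 and 128 CPM (-0.09 ± 0.07, SE). In all 3 the groups overlapped. Cox8a, the highest member of the complex per length, had 323, 299, 285 and 299 CPM in controls, and under DOX 295, 301 and 305 CPM in the first 3 tumours and 373 CPM in DOX tumour 4. The complex IV sum was 1658, 1558, 1478 and 1631 CPM in controls against 1429, 1525, 1607 and 1739 CPM in DOX tumours (1581 ± 80.6 and 1575 ± 131 CPM, mean ± SD, n = 4 each).

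Complex V, ATP synthase, had the highest summed and median transcript levels of the complexes. Its 17 members had a median log2 fold change of 0.03, with 13 above 0, 4 below and all 17 intervals within 1.5-fold. The catalytic head is built from the alpha and beta subunits Atp5a1 and Atp5b. Atp5b had 1166, 1198, 1178 and 1258 CPM in controls and 1198, 1190, 1220 and 1254 CPM in DOX tumours, all 4 DOX values inside the control range (log2 fold change 0.02 ± 0.06, SE, 95% interval -0.11 to 0.15). Atp5a1 had 639, 680, 690 and 722 CPM against 657, 668, 672 and 697 CPM, again inside the control range (-0.02 ± 0.06, SE). Both had more counts than any other member, and for Atp5b the 95% interval of the fold change, 0.924 to 1.11, lay close around 1.

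The central stalk is made of the gamma, delta and epsilon subunits. Atp5c1, the rotating gamma subunit, had 227, 230, 229 and 229 CPM in controls and 227, 232, 237 and 252 CPM in DOX tumours (0.05 ± 0.05, SE). The controls lay very close together, and the DOX tumours spread upward from the same level. Atp5d, the delta subunit, had 188, 186, 169 and 176 CPM against 168, 177, 179 and 208 CPM. Atp5e, the epsilon subunit, had 33.3, 35.6, 29.3 and 26.6 CPM against 30.0, 31.2, 34.6 and 43.3 CPM. In both, DOX tumour 4 lay above the control range and the other DOX tumours did not. In the peripheral stalk, Atp5o, the oligomycin sensitivity-conferring protein, had 89.0, 91.8, 83.6 and 101 CPM against 88.4, 93.0, 101 and 109 CPM, and Atp5j, coupling factor 6, 73.7, 73.8, 76.7 and 77.6 CPM against 72.2, 78.6, 81.2 and 93.7 CPM. The estimates were 0.10 ± 0.08 and 0.11 ± 0.08 (SE) on the log2 scale, with edgeR adjusted p-values of 0.674 and 0.616.

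The c subunit of the membrane ring is made from 3 genes that encode the same mature protein with different import sequences. Atp5g2 gave 61.4% ± 3.87 of their summed FPKM without and 58.6% ± 1.03 with DOX, Atp5g1 22.5% ± 2.97 and 24.6% ± 0.916, and Atp5g3 16.1% ± 0.925 and 16.8% ± 0.174 (SD, n = 4 each). Atp5g2 had 397, 362, 335 and 309 CPM in controls and 315, 313, 354 and 339 CPM in DOX tumours, while Atp5g1 had 144, 157, 152 and 180 CPM against 157, 168, 176 and 188 CPM. Control tumour 1 had the highest Atp5g2 and the lowest Atp5g1 of the controls and control tumour 4 the reverse, so their Atp5g2 shares were 65.8% and 56.4%, and the DOX tumours, at 57.3% to 59.5%, lay inside that range. Atp5k, subunit e of the membrane part and the lowest member of the complex at 64.6 FPKM, had 14.4, 16.4, 16.8 and 21.0 CPM against 16.4, 17.1, 17.7 and 20.5 CPM, all DOX values inside the control range. The complex V sum was 3826, 3863, 3787 and 3991 CPM in controls and 3723, 3821, 3948 and 4138 CPM in DOX tumours.

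**Figure D3:**
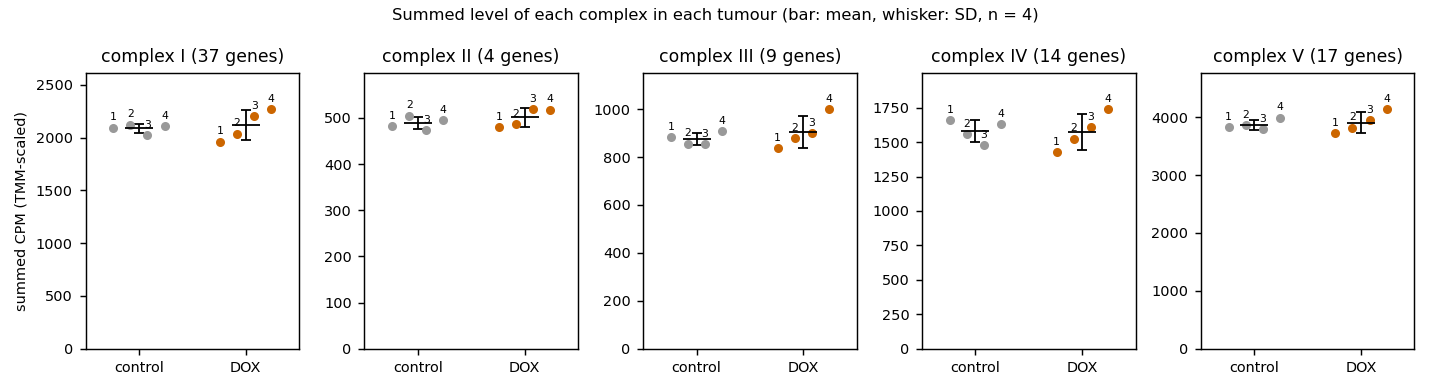
Summed CPM (TMM-scaled, axis from 0) of the members of each complex in each tumour; points are tumours, numbered within their group, bars are means and whiskers SD (n = 4). In complexes I, III, IV and V the DOX group holds both the lowest tumour (1) and the highest (4), with the controls in between.

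The spread of the members followed single tumours. The sum over all members was 8947, 8906, 8617 and 9132 CPM in controls and 8434, 8749, 9180 and 9665 CPM under DOX, or 8901 ± 213 and 9007 ± 535 CPM (mean ± SD, n = 4 each). DOX tumour 4 was the highest of the 8 for 47 of the 78 tested members, against 24.2% of all genes tested, and DOX tumour 1 was the lowest for 30, against 6.64% of all genes. Among genes with a mean of at least 10 CPM these shares were 23.2% and 5.21%. DOX tumour 4 was highest in 21 complex I members, 2 of complex II, 7 of complex III, 6 of complex IV and 11 of complex V. Part of this depends on scaling: TMM raised the values of DOX tumour 4 by its factor of 0.97 and lowered those of DOX tumour 1 by its factor of 1.02, and with library totals alone the counts were 41 and 20. Members varied with a median coefficient of variation of 6.01% among controls and 8.74% among DOX tumours, and all genes tested with 10.6% and 9.31%. Among genes with a mean of at least 10 CPM these medians were 8.74% and 7.47%. Against that background the members varied less among controls and more among DOX tumours.

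Markers of immune cells also differed between the tumours. Macrophage markers summed to 1928 to 2255 CPM in controls, 2580 to 3380 CPM in the first 3 DOX tumours and 4555 CPM in DOX tumour 4, and T cell markers to 31.0 to 76.3 CPM, 77.3 to 123 CPM and 251 CPM. DOX tumour 4 was thus the highest and DOX tumour 1 the lowest of the DOX group for both lists, as for the members. The controls did not follow this order. Control tumour 3 was the highest control for both lists, at 2255 and 76.3 CPM, and the lowest for the members, at 8617 CPM. Unadjusted p-values below 0.05 were reached on the higher side by 8 of 10 macrophage and 10 of 10 tested T cell markers, and by 0 of either after edgeR adjustment over all genes, with 4 and 3 called by DESeq2. Over the 13436 genes tested in edgeR the shares were 7.65% on the higher side and 0.00744% after adjustment. With DESeq2 it was 0.45% of 18206 genes, without the filter on low counts. Both lists were chosen with earlier results of these data known. The part of macrophages and T cells in the members' levels was not tested. With DOX tumour 4 left out, the median log2 fold change was -0.00574 for complex I, 0.03 for complex II, -0.03 for complex III, -0.01 for complex IV and 0.00185 for complex V. Complex IV was also below 0 without control tumour 3 (-0.00219) and at 0.0219 without DOX tumour 3, complex II was at 0.0328 and 0.0309 without these, and complex V was at 0.0105 without control tumour 3. Without DOX tumour 1 the medians of complexes I to V were 0.0836, 0.079, 0.105, 0.106 and 0.0629, complex I was at 0.0716 without DOX tumour 2, and complex V at 0.0511 without control tumour 4. With DOX tumour 1 left out, the median over all members was 0.08, 61 members were above 0, and Cox6a1, Ndufb4 and Sdhb had an unadjusted p below 0.05, with 0 past the adjusted threshold (smallest edgeR adjusted p = 0.174). Without control tumour 4, Atp5g1 and Ndufv3 had an unadjusted p below 0.05, again with 0 adjusted calls.

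**Figure D4:**
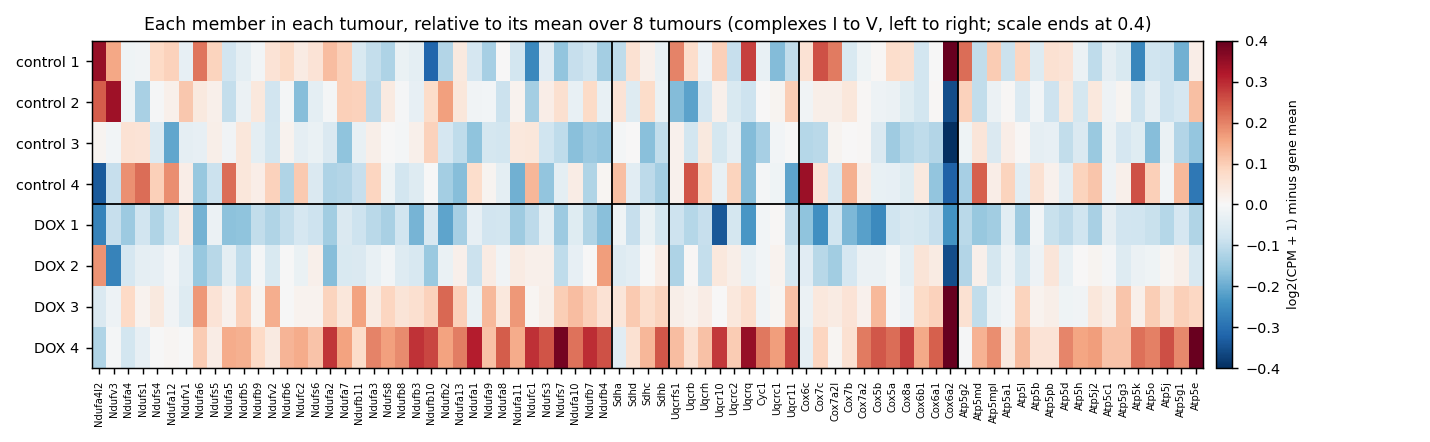
Level of 77 of the 78 tested members in each tumour, as log2(CPM + 1) minus the gene's mean over the 8 tumours, with complexes I to V from left to right in the order of their fold change; red is above and blue below the mean, and the colour scale ends at 0.4 in either direction. The row of DOX tumour 4 is red and that of DOX tumour 1 blue across most members of every complex, and Cox6a2 goes past the scale in several tumours.

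Several complex IV subunits exist as a widely used isoform and another found in muscle, brown fat, testis or lung, and here the widely used one made up nearly all transcripts. Cox7a2 and Cox7a1 gave 99.3% and 0.704% of their pair's FPKM in control tumours, Cox6b1 and the testis isoform Cox6b2 99.9% and 0.0847%, and Cox8a nearly the whole of its pair with Cox8b. Cox8b, the heart and muscle isoform, had 0, 1, 0 and 0 counts in controls and 0, 4, 0 and 8 counts in DOX tumours. Cox7a1, of heart, muscle and brown fat, had 7, 5, 5 and 1 counts against 5, 9, 2 and 5, and Cox6b2 0, 3, 3 and 2 against 2, 3, 1 and 1. These counts are too low for a fold change to be read from them.

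Cox6a2, the heart and skeletal muscle isoform of Cox6a, was the exception, with 4.51% ± 2.50 of the COX6A pair's FPKM without and 4.69% ± 1.35 with DOX (SD, n = 4 each). Cox6a2 had 16.1, 6.22, 4.67 and 6.38 CPM in controls and 6.83, 6.23, 12.6 and 12.3 CPM under DOX. Control tumour 1 stood highest, followed by DOX tumours 3 and 4, and the groups overlapped (log2 fold change 0.19 ± 0.42, SE, 95% interval -0.76 to 1.14). Without control tumour 1 the log2 fold change was 0.72, with an unadjusted p below 0.05 and no adjusted call. Markers of skeletal muscle summed to 65.4, 152, 127 and 59.0 CPM in the controls and 106, 362, 221 and 350 CPM in the DOX tumours. Eno3 alone gave 56.3, 54.9, 55.0 and 46.1 CPM of the control sums, most of those of control tumours 1 and 4. In the DOX tumours it gave 64.2, 59.7, 57.0 and 62.5 CPM. Of 21 tested markers 10 were higher at an unadjusted edgeR p below 0.05, against 7.65% of all genes tested, and 0 passed the adjusted one. Acta1, the skeletal muscle actin, was at 0.0546 CPM in control tumour 1, where Cox6a2 was highest, and at 22.0 CPM in control tumour 2. Eno3 was similar in both tumours, and the source of Cox6a2 was not tested. Of 8 listed brown fat markers 7 were in the table and 2 were high enough to test. Ucp1 and Cidea had at most 0.164 and 0.0546 CPM in any tumour, while Zic1, a zinc-finger transcription factor, had 42.0, 45.0, 41.5 and 44.0 CPM in controls and 38.3, 34.6, 39.5 and 33.4 CPM in DOX tumours. The DOX tumours lay below all controls for Zic1 (-0.24 ± 0.07, SE, edgeR adjusted p = 0.387), which made up most of the list's sum of 34.8 to 46.7 CPM. Cdh1, the epithelial cadherin, was also highest in control tumour 1, at 19.8 CPM while the remaining controls had 4.77 to 5.15 CPM and DOX tumours 6.05 to 8.62 CPM.

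Complex IV also takes either Cox4i1 or Cox4i2, which lie outside the symbol pattern. Cox4i2, the isoform of lung and low oxygen, held 0.525% ± 0.0772 of the pair's FPKM without and 0.603% ± 0.137 with DOX (SD, n = 4 each). Cox4i1 had 208, 198, 185 and 165 CPM against 176, 183, 197 and 208 CPM, and its log2 fold change was 0.02 ± 0.08 (SE). Ndufab1, the mitochondrial acyl carrier protein of complex I, had 56.9, 60.1, 54.1 and 55.0 CPM in controls and 60.7, 61.6, 60.4 and 71.6 CPM in DOX tumours. The DOX tumours lay above all controls, by a small margin in 3 of them (log2 fold change 0.17 ± 0.07, SE, unadjusted p = 0.0425, edgeR adjusted p = 0.416). Atpif1, the inhibitor of ATP synthase's reverse reaction, had 114, 104, 97.9 and 116 CPM against 90.7, 92.7, 102 and 100 CPM (-0.16 ± 0.07, SE, edgeR adjusted p = 0.431). Higd1a, a hypoxia-induced protein that associates with complex IV, had 56.5, 60.7, 45.3 and 41.4 CPM against 37.9, 40.9, 34.5 and 33.6 CPM, with every DOX tumour below every control (-0.47 ± 0.13, SE, edgeR adjusted p = 0.387). Of the 9 subunits and associated proteins on this list, 1 was higher and 2 lower at an unadjusted edgeR p below 0.05, against 7.65% and 3.95% of all genes tested.

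No factor known to assemble the complexes passed the adjusted threshold in edgeR or DESeq2. Median log2 fold changes were 0.06 over 17 tested factors of complex I, 0.07 over 4 of complex II, 0.02 over 6 of complex III, 0.07 over 23 of complex IV and -0.02 over 5 of complex V. At an unadjusted edgeR p below 0.05 there were 1 higher and 1 lower, both for complex IV, against 7.65% and 3.95% of all genes tested. Cox11, which delivers copper to the oxidase, had 24.7, 20.6, 21.4 and 22.9 CPM in control and 18.9, 18.8, 20.5 and 18.0 CPM in DOX tumours, just short of overlap (-0.23 ± 0.08, SE, edgeR adjusted p = 0.387). Coa5, an early assembly factor, had 120, 107, 113 and 126 CPM against 119, 142, 133 and 154 CPM (0.23 ± 0.09, SE, edgeR adjusted p = 0.390).

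The regulators of respiratory genes had a median of -0.08 over 15 tested genes. Ppargc1b, a PGC-1 coactivator, had 9.34, 7.36, 11.1 and 8.84 CPM in control and 10.1, 10.5, 12.8 and 14.4 CPM in DOX tumours (0.39 ± 0.16, SE, edgeR adjusted p = 0.403). Gabpa, the DNA-binding subunit of GABP, had 73.2, 62.4, 67.5 and 76.0 CPM against 66.2, 64.9, 55.6 and 56.8 CPM (-0.20 ± 0.09, SE, edgeR adjusted p = 0.423). These were the 2 regulators with an unadjusted p below 0.05, in opposite directions, and both overlapped between the groups. Over the citric acid cycle, whose enzymes supply the chain with electrons, the median of 17 genes was 0.00309 and 0 had an unadjusted p below 0.05. Over 13 genes that make coenzyme Q, which carries electrons to complex III, the median was 0.01, and Coq3 alone had an unadjusted p below 0.05 (-0.18 ± 0.08, SE, edgeR adjusted p = 0.430). Among all genes tested 11.6% had an unadjusted edgeR p below 0.05.

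Genes of the hypoxia and glycolysis response had lower estimates in DOX tumours in the same comparison. Of 22 genes listed, Higd1a among them, 17 were lower at an unadjusted p below 0.05, 0 higher and 0 past the adjusted edgeR threshold, with 5 called by DESeq2 and a median log2 fold change of -0.47. Over all genes tested 3.95% were lower at an unadjusted edgeR p below 0.05, and DESeq2 called 0.45% of its 18206 genes. The list was chosen with earlier results of these data known, so its counts are not independent of them. Kdm3a, a histone demethylase induced by low oxygen, had 241, 222, 201 and 181 CPM in control and 173, 140, 122 and 108 CPM in DOX tumours (-0.64 ± 0.15, SE, edgeR adjusted p = 0.387). Bnip3l, a receptor for the removal of mitochondria, had 165, 170, 142 and 138 CPM against 135, 114, 106 and 91.5 CPM (-0.46 ± 0.12, SE). The DOX tumours lay below all controls in both genes, with DOX tumour 4 the lowest. The groups did not overlap in 5 of the 22 genes, against 5.66% of all genes tested. The list as a whole summed to 8816, 7365, 5955 and 5549 CPM in controls and 5903, 5162, 4767 and 5176 CPM in DOX tumours, so the sums overlapped and DOX tumour 3 had the lowest. The difference between this list and the members was not tested, and neither was any link between them.

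**Figure D5:**
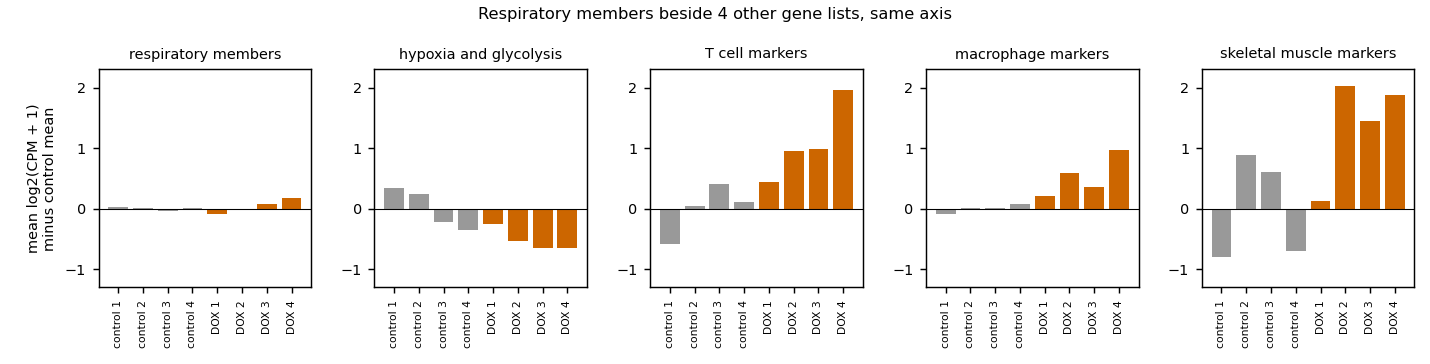
Mean log2(CPM + 1) of the tested genes of 5 lists in each tumour, relative to the mean of the 4 controls, on the same axis. The respiratory members stay near 0 in all tumours. The hypoxia and glycolysis list is below 0 in every DOX tumour and in control tumours 3 and 4. The T cell, macrophage and skeletal muscle lists are above 0 in every DOX tumour. Skeletal muscle varies widely in both groups, with DOX tumour 1 below control tumours 2 and 3.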

How the data were processed

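Bulk mRNA was sequenced from 4 control and 4 DOX tumours, and groups and tumour numbers were taken from the sample labels. For 18251 genes the authors deposited read counts and, in a separate table, FPKM. The deposited counts are expected counts, with 64.9% of values whole (tolerance 0.005); the authors' tool thus split reads among similar genes. Of the 81 members, 65 had whole counts in all 8 libraries and 13 in fewer than 6, among them Ndufb4, Ndufs1, Ndufb11, Ndufa2, Ndufa13, Cyc1, Uqcrc2, Cox5a, Cox7a2, Atp5j, Atp5h and Atp5pb. The deposited FPKM, named so per the file headers, are scaled by the authors to gene length and library size and served for levels between genes and as an alternative. HISAT, Bowtie2 and GRCm38.p6 are named in the submitters' processing notes; the sources used here do not give the counting tool, the annotation or any use of strand. A table of TPM holds 8 columns that match no sample, and these were not used.

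Counts were rounded to whole numbers. Libraries held 18685975 to 19307481 counts, the common biological coefficient of variation was 14.7%, and no pair of libraries agreed within sampling noise (chi-square per degree of freedom 5.73 to 80.4 over genes with at least 80 counts). In edgeR 4.0.16 (R 4.3.3), filterByExpr kept 13436 genes, and TMM scaling and the robust quasi-likelihood F test were followed by Benjamini-Hochberg adjustment over all of them at 0.05. The SE is the size of the log2 fold change over the square root of F, and 95% intervals use the test's degrees of freedom. CPM are TMM-scaled. Alternatives used DESeq2 1.42.0, limma 3.58.1 on log2(FPKM + 1) or log2(FPKM + 0.1), other scalings and filters, a replicate block and each tumour left out. The fit was tested on simulated data. The members and gene lists were chosen with earlier results of these data known.

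Values per tumour, as CPM or, for members too low to test, counts, were given for the 5 members with the smallest p in each complex, the catalytic or redox core subunits, the tissue and hypoxia isoforms and the highest and lowest member of each complex by FPKM, and for up to 4 genes of each other list. Ndufa11, the Nduf genes named at the ends of a range, and the genes Acta1, Eno3, Ucp1, Cidea, Cox4i1 and Ndufa1 were named outside that rule after their values were seen. For 1 member counted above, its own values are not reported here. Genes were matched to RefSeq promoter windows by gene identifier. The tumours came from different mice, so p-values measure the spread between animals.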

Additional observations from a re-analysis of the deposited data

Results flagged for a closer look

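In 166 groups of 4 tumours, covering the members and related genes, 7 had a tumour whose gap to the nearest other exceeded Dixon's 95% critical value. Chance flags about 1 group in 20 when groups are independent. These groups share the same tumours, so the count of 7 cannot decide whether chance gave them. DOX tumour 4 stood above the other DOX tumours in 4 of them. Cox8a was at 373 CPM there against 295 to 305 CPM, Cyc1 at 203 CPM against 174 CPM in each of the others, Uqcrc1 at 174 CPM against 156 CPM in each, and Ndufa1, a small membrane-arm subunit of complex I, at 15.2 CPM against 11.3 to 11.8 CPM. DOX tumour 1 lay below its group for Cox6c, at 234 CPM against 253 to 257 CPM. Control tumour 1 lay below the other controls for Uqcrc1, at 137 CPM against 153 to 156 CPM, and above them for the muscle isoform Cox6a2, at 16.1 CPM against 4.67 to 6.38 CPM.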

How the results depend on the processing

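No member passed an adjusted p of 0.05 under any setting tried. The median log2 fold change over the 78 tested members was 0.0415 to 0.0486 under other scalings, filters and tests, 0.0434 over members with whole counts, and -0.00303 to 0.0806 with 1 tumour left out. By complex, the median of complex III went from 0.0494 to 0.00825 over members with whole counts, and that of complex IV from 0.0638 to 0.0313 without the tissue and hypoxia isoforms. Genes past the threshold over the whole table numbered 1 in the main test, 82 with DESeq2, and 1 to 2 with 1 tumour left out. Cxcl14 had 1.38 with DESeq2, now past the threshold, and 1.26 to 1.54 with 1 tumour left out, past it without DOX tumour 4 (adjusted p = 0.0166).

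Of 782 comparisons of single genes with an alternative, 764 kept direction and side of the threshold and 18 changed sign, in 10 of 46 genes; the cause was not tested. Ndufv2 went to -0.00162 with RLE factors, -0.00195 without a filter and -0.00269 with DESeq2. With 1 tumour left out, the log2 fold change ran from -0.0493 to 0.0399 for Ndufv2, from -0.0515 to 0.0016 for Ndufv1, from -0.0719 to 0.00143 for Sdha, from -0.016 to 0.0488 for Sdhd, from -0.0908 to 0.0311 for Uqcrfs1, from -0.0301 to 0.198 for Uqcrq, from -0.0499 to 0.00841 for Atp5a1, from -0.0367 to 0.0629 for Atp5d, from -0.00912 to 0.723 for Cox6a2 and from -0.00444 to 0.347 for Cox4i2.

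Tumours with the same number shared little deviation (correlations -0.0243 to 0.086). With so few tumours this cannot exclude that the numbers pair them. With a replicate block the members' median was 0.0464 and 0 passed. The number of tumours limits what could be called in a single member, and the 3 untested isoform genes had too few counts.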
